A study of Sus scrofa with 20 samples.

Results

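Translation initiation factors are the proteins that bring the ribosome, the initiator tRNA and the capped mRNA together at the start codon. The members described here were all genes whose symbol in the array annotation begins with EIF1, EIF2, EIF3, EIF4, EIF5 or EIF6, without EIF1AY, EIF4A1, EIF5A and the Argonaute genes that carry the older EIF2C symbols. The rule found 41 genes with 82 probe sets among 13754 named genes and 47845 probe sets on the array, with the symbol EIF4GI counted as its RefSeq synonym EIF4G1. A probe set was tested where its mean over all 20 arrays was at or above the median of these means over the table (5.18 on the log2 scale), which left 55 probe sets of 38 member genes among 23860 tested probe sets.

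The values came from the amygdala of 20 German Landrace pigs, 10 with a high-reactive (HR) and 10 with a low-reactive (LR) coping pattern. There was 1 array and 1 animal per sample and no treatment. Per the study, the tissue was taken at slaughter, months after the behaviour tests. In the study, animals were chosen for extreme coping behaviour in backtests as piglets and for a haplotype on chromosome 12 linked to that behaviour, so behaviour and haplotype cannot be told apart in these groups. The tissue was the whole amygdala with its sub-nuclei. In such bulk tissue, fewer cells of a type and less RNA per cell cannot be told apart. The labels named no batch, but 9 of the 10 HR animals carried an animal number above that of every LR animal.

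Initiation begins when the eIF2 complex delivers the initiator tRNA to the small ribosomal subunit with the help of eIF1, eIF1A, eIF3 and eIF5. The eIF4 proteins bind the cap of the mRNA, unwind its leader and join it to eIF3 on the ribosome. The guanine exchange factor eIF2B recharges eIF2 after each round, and kinases that phosphorylate eIF2 under stress slow that step. In neurons, local protein synthesis near synapses depends on these controls, and eIF4E and the phosphorylation of eIF2 are known for their part in synaptic plasticity and memory in rodents.

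No initiation factor passed the test between HR and LR pigs. Of the 55 probe sets, 0 reached an adjusted p under 0.05 in limma, the lowest adjusted p was 0.157, and over all tested probe sets 0.00838% passed. At an unadjusted p under 0.05 there were 16 of the 55 (29.1%), beside 26.3% of all tested probe sets. Of these 16, 5 were higher and 11 lower in HR, beside 12.3% higher and 14.0% lower over all tested probe sets. Those 16 probe sets belonged to 14 genes. At any p, 30 of the 55 were higher and 25 lower in HR, beside 14091 higher and 9769 lower over all tested probe sets. The median difference, HR minus LR, was 0.02 on the log2 scale for the members and 0.05 over all tested probe sets, and the members' differences lay between -0.53 and 0.38. The value ranges of the groups overlapped in all 55 probe sets, while 0.00419% of all tested probe sets did not overlap.

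**Figure D1:**
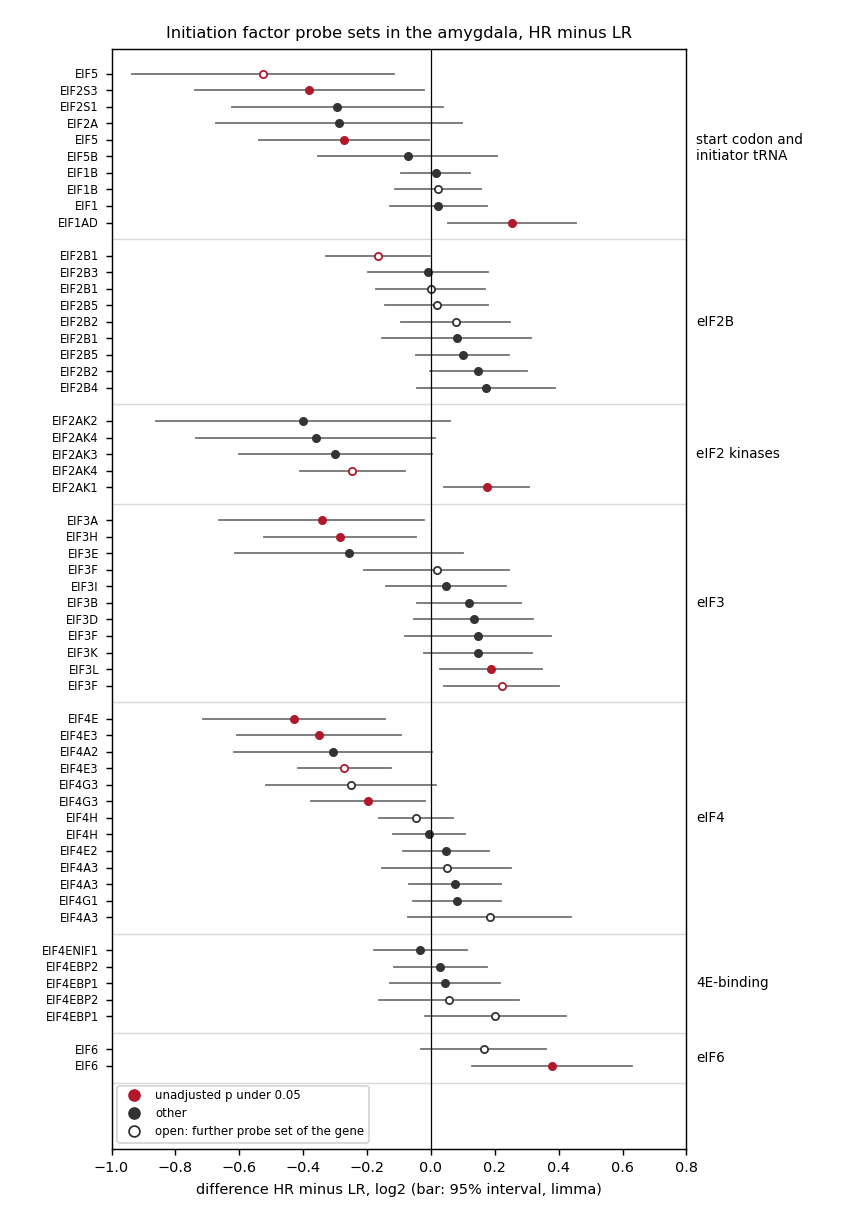
Difference in log2 value, HR minus LR, on the horizontal axis for each of the 55 tested initiation factor probe sets, grouped by role, with 10 animals per group. Points are limma estimates and bars their 95% intervals. Red marks the 16 probe sets at unadjusted p under 0.05, and open points are further probe sets of a gene. The lowest point is EIF5 at -0.53 and the highest EIF6 at 0.38, and no probe set passed after adjustment.

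The smallest p among the members was that of EIF4E3, a relative of the cap-binding protein eIF4E. On the probe set SNOWBALL_015758_st the HR animals lay between 9.31 and 9.81 with a median of 9.65, and the LR animals between 9.77 and 10.04 with a median of 9.83. All 10 HR animals were below the LR median, and the ranges overlapped only between 9.77 and 9.81. Within HR, 3 animals were low, namely replicates 4, 9 and 10 at 9.31, 9.37 and 9.38, and the other HR animals were at or above 9.59. HR had a mean of 9.60 ± 0.18 and LR one of 9.87 ± 0.08 (SD, n = 10 each), a difference of -0.27 ± 0.07 (SE), with p = 0.000903 and adjusted p = 0.157 in limma. On the linear scale LR was 1.21-fold HR. The second tested EIF4E3 probe set, SNOWBALL_032579_st, had medians of 9.92 in HR and 10.17 in LR and a difference of -0.35 ± 0.12 (SE, p = 0.0095, adjusted p = 0.157), with 9 of 10 HR animals below the LR median. The same 3 HR animals were its lowest.

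EIF4E, the cap-binding protein itself, was also lower in HR in mean. Its values ran from 7.72 over a median of 8.27 to 8.56 in HR, and from 8.24 over 8.60 to 9.51 in LR. Every one of the 10 HR values was under the LR median, and the top LR value belonged to replicate 3. The difference was -0.43 ± 0.14 (SE, 95% interval -0.71 to -0.14), with p = 0.00487 and adjusted p = 0.157. Without LR replicate 3 it was -0.33 (p = 0.00685).

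EIF4G3 encodes a scaffold that ties the cap-binding protein to the helicase, and it differed by -0.20 ± 0.09 (SE, p = 0.0326, adjusted p = 0.174), with 9 of 10 HR animals below the LR median. Without LR replicate 3 it was -0.15 (p = 0.0622). EIF4A2, which encodes a helicase that opens the mRNA leader, differed by -0.31 ± 0.15 (SE, p = 0.0534, adjusted p = 0.194). For EIF4A2, LR replicate 3 was at 11.75 and the highest HR animal at 10.80, and without that LR animal the difference was -0.18 (p = 0.0994). Over all 13 tested eIF4 probe sets, 5 were higher and 8 lower in HR, and the median difference was -0.05. The 4 at unadjusted p under 0.05 (30.8%) were all lower in HR, both tested EIF4E3 probe sets among them. Over all tested probe sets this share was 26.3% (12.3% higher and 14.0% lower).

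The next group holds the repressors that keep eIF4E away from its scaffold. EIF4EBP1, a substrate of mTORC1, differed by 0.04 ± 0.08 (SE, 95% interval -0.13 to 0.22, adjusted p = 0.716) on its brighter probe set. On its dimmer one, SNOWBALL_026921_st, it differed by 0.20 ± 0.11 (SE, p = 0.0706, adjusted p = 0.214), with 9 of 10 HR animals above the LR median. EIF4ENIF1, which carries eIF4E into the nucleus and to processing bodies, differed by -0.03 ± 0.07 (SE, 95% interval -0.18 to 0.11). None of the 5 tested probe sets of this group had an unadjusted p under 0.05, beside 26.3% of all tested probe sets.

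**Figure D2:**
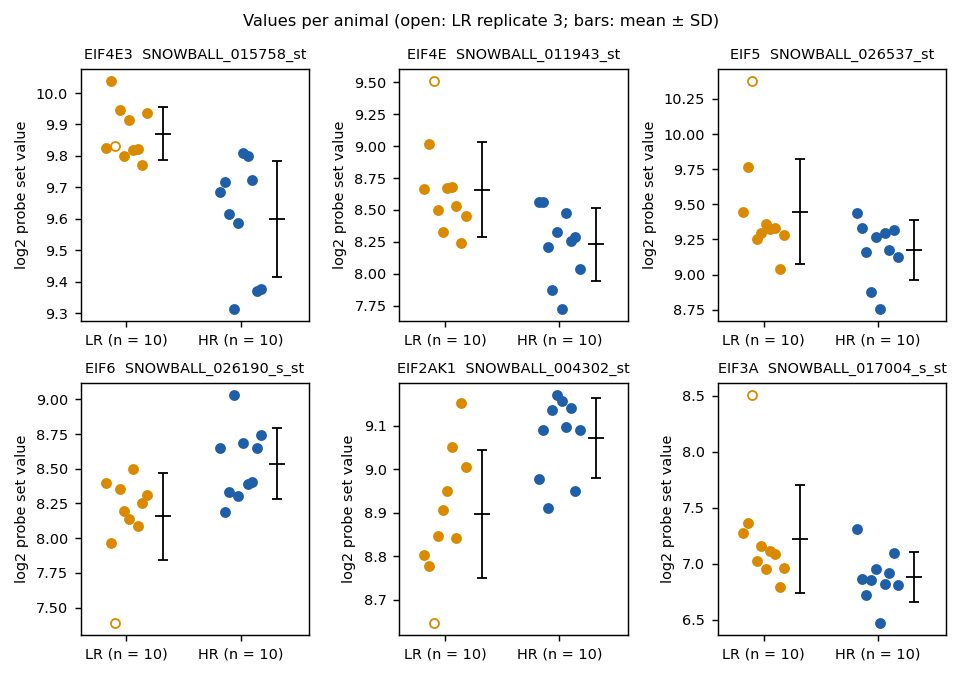
Log2 probe set value of each animal for EIF4E3, EIF4E, EIF5, EIF6, EIF2AK1 and EIF3A, with LR in orange and HR in blue (n = 10 each). Black bars give the mean ± SD and the open point is LR replicate 3. In EIF4E3 the groups overlap only between 9.77 and 9.81. In EIF4E, EIF5, EIF6, EIF2AK1 and EIF3A the open point lies at the end of the LR range, at 9.51, 10.38, 7.39, 8.65 and 8.51.

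Among the genes grouped here under start codon selection, the differences ran in both directions. EIF5 encodes the protein that makes eIF2 hydrolyse its GTP once the start codon is found. On its brightest probe set the HR animals lay between 8.75 and 9.44 with a median of 9.22, and the LR animals between 9.04 and 10.38 with a median of 9.32. LR replicate 3 held the top value, and the difference was -0.27 ± 0.13 (SE, p = 0.0444, adjusted p = 0.184). Without that animal it was -0.17 (p = 0.0765). A second EIF5 probe set, SNOWBALL_026365_st, had the lowest difference of all members at -0.53 ± 0.20 (SE, p = 0.0142, adjusted p = 0.158), with LR replicate 3 at 10.09. Without LR replicate 3 this difference was -0.34 (p = 0.00566). All 10 HR animals were below the LR median on this probe set.

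Both named subunits of eIF2 were lower in HR in mean. EIF2S3, the gamma subunit that binds GTP and the initiator tRNA, had medians of 6.17 in HR and 6.58 in LR and differed by -0.38 ± 0.17 (SE, p = 0.0381, adjusted p = 0.177). EIF2S1, the alpha subunit that the kinases phosphorylate, differed by -0.29 ± 0.16 (SE, p = 0.0785, adjusted p = 0.224). In both, LR replicate 3 was the highest animal, at 7.62 and 7.63. Without it the differences were -0.26 (p = 0.0784) and -0.16 (p = 0.158).

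EIF1AD, named for its eIF1A domain and placed in this group by that name, was its member higher in HR at an unadjusted p under 0.05. Its values lay between 7.95 and 8.23 in HR with a median of 8.10, and between 7.19 and 8.17 in LR with a median of 7.91. All 10 HR animals lay above the LR median, and the difference was 0.25 ± 0.10 (SE, p = 0.0159, adjusted p = 0.159). The spread was larger in LR (SD 0.30) than in HR (SD 0.09), and LR replicate 3 was the lowest animal. Over the 10 tested probe sets of the start codon group, 4 were higher and 6 lower in HR. At unadjusted p under 0.05 they were 1 and 3 (40.0% together), beside 26.3% of all tested probe sets.

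The kinases of eIF2 did not share 1 direction. EIF2AK1, the kinase that senses heme, had medians of 9.09 in HR and 8.88 in LR. All 10 HR animals were above the LR median, and the difference was 0.17 ± 0.06 (SE, p = 0.0128, adjusted p = 0.157). LR replicate 3 was the lowest animal at 8.65, and without it the difference was 0.15 (p = 0.0203). The other kinases were lower in HR in mean. EIF2AK2, which binds double-stranded RNA, differed by -0.40 ± 0.22 (SE, p = 0.0842, adjusted p = 0.231). LR replicate 3 was its highest animal at 7.93, and without it the difference was -0.22 (p = 0.182). EIF2AK3, the kinase of the endoplasmic reticulum, differed by -0.30 ± 0.15 (SE, adjusted p = 0.193).

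EIF2AK4, which senses uncharged tRNA, had 2 tested probe sets. The brighter differed by -0.36 ± 0.18 (SE, p = 0.0575, adjusted p = 0.199), with LR replicate 3 highest at 8.02. Without that animal its difference was -0.24 (p = 0.125). The dimmer, SNOWBALL_031717_st, ran from 5.42 over a median of 5.49 to 5.95 in HR and from 5.66 over 5.80 to 6.25 in LR. It differed by -0.25 ± 0.08 (SE, p = 0.00522, adjusted p = 0.157), with 9 of 10 HR animals below the LR median.

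The subunits of eIF2B, in which mutations cause vanishing white matter disease in humans, differed little. EIF2B2 and EIF2B4, regulatory subunits, differed by 0.15 ± 0.07 (SE, p = 0.0548, adjusted p = 0.196) and 0.17 ± 0.10 (SE, p = 0.110, adjusted p = 0.257), with 9 of 10 HR animals above the LR median in each. EIF2B1 was the 1 gene of 14 with several tested probe sets whose probe sets disagreed in sign. Its differences were 0.08, -0.00 and -0.17, the last with p = 0.0446 and adjusted p = 0.184 (p = 0.0672 without LR replicate 3). Of the 9 tested eIF2B probe sets, 6 were higher and 3 lower in HR, with a median of 0.08. Over all tested probe sets, 14091 were higher and 9769 lower. At unadjusted p under 0.05 there was 1 of the 9 (11.1%), beside 26.3% of all tested probe sets.

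The eIF3 complex, the scaffold on which the small ribosomal subunit meets the mRNA, had members on both sides. EIF3A, the largest subunit of its core, ran from 6.47 over a median of 6.86 to 7.31 in HR and from 6.79 over 7.10 to 8.51 in LR. The difference was -0.34 ± 0.15 (SE, p = 0.0379, adjusted p = 0.177), and without LR replicate 3, the animal at 8.51, it was -0.20 (p = 0.0386). EIF3H differed by -0.28 ± 0.12 (SE, p = 0.0218, adjusted p = 0.164). EIF3E differed by -0.26 ± 0.17 (SE, p = 0.152, adjusted p = 0.302), with LR replicate 3 at 8.33 and the other LR animals between 6.39 and 7.27. Without LR replicate 3 it was -0.10 (p = 0.350).

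Other eIF3 subunits were higher in HR in mean. EIF3L had medians of 9.64 in HR and 9.50 in LR and differed by 0.19 ± 0.08 (SE, p = 0.024, adjusted p = 0.165), with 9 of 10 HR animals above the LR median. EIF3F, on the probe set SNOWBALL_011990_st, differed by 0.22 ± 0.09 (SE, p = 0.0176, adjusted p = 0.160), while its other probe sets differed by 0.15 and 0.02. EIF3K differed by 0.15 ± 0.08 (SE, p = 0.0861, adjusted p = 0.233) and EIF3B, a core subunit, by 0.12 ± 0.08 (SE, p = 0.144, adjusted p = 0.293). All 10 HR animals were above the LR median in EIF3K, and 5 of 10 in EIF3B. Without LR replicate 3, EIF3K differed by 0.09 (p = 0.173) and EIF3B by 0.06 (p = 0.307). In all, 8 of 11 tested eIF3 probe sets were higher and 3 lower in HR, beside 14091 and 9769 over all tested probe sets. Without LR replicate 3 these numbers were 6 and 5, beside 12943 and 10917. With all animals, 2 were higher and 2 lower at unadjusted p under 0.05 (36.4% together), beside 26.3% of all tested probe sets.

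EIF6 keeps the large ribosomal subunit from joining the small one too early, and it had the highest difference of all members. On SNOWBALL_026190_s_st the HR animals lay between 8.19 and 9.03 with a median of 8.52, and the LR animals between 7.39 and 8.50 with a median of 8.23. LR replicate 3 was the lowest animal, and 9 of 10 HR animals were above the LR median. The difference was 0.38 ± 0.12 (SE, 95% interval 0.13 to 0.63), with p = 0.0049 and adjusted p = 0.157. Without LR replicate 3 it was 0.29 (p = 0.00622), and the second EIF6 probe set differed by 0.16 ± 0.09 (SE, p = 0.0938), or 0.11 without that animal.

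The remaining 13 tested genes had differences between -0.29 and 0.13, 9 of them above 0 and 4 below, and 0 of 13 had an unadjusted p under 0.05. Below the filter lay 27 member probe sets with means between 1.68 and 5.15, and 3 genes (EIF3M, EIF4B and EIF5A2) had none above it. Of the 27, 11 were under the array's own background mean on all 20 arrays. With no filter, 0 of the 27 passed after adjustment, with a lowest adjusted p of 0.269, and 1 had an unadjusted p under 0.05, a dim EIF5 probe set at -0.39 (p = 0.0305).

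Animals also differed from each other within the groups, and the members varied with these differences. LR replicate 3 had the lowest median correlation with the other arrays (0.876) and was the highest or lowest of all 20 animals in 83.6% of the member probe sets, against 62.7% of all tested probe sets. It was the highest in 17 and the lowest in 29 of the 55. Without this animal 12 of the 55 had an unadjusted p under 0.05, 5 higher and 7 lower in HR, beside 18.5% of all tested probe sets (7.86% higher and 10.6% lower), and the median difference was -0.01. Of the 16 probe sets at an unadjusted p under 0.05, 10 kept it whichever animal was left out, and 6 lost it without at least 1 animal (EIF2B1, EIF2S3, EIF3A, EIF3L, EIF4G3 and the brighter EIF5 probe set). EIF3L lost it only without HR replicate 6 (p = 0.0522), and EIF3A had its highest p, 0.0733, without the same animal. Without the 4 arrays of lowest correlation (LR replicates 2 and 3, HR replicates 4 and 6) the count was 5 of 55, 1 higher and 4 lower, beside 5.78% of all tested probe sets (2.82% higher and 2.95% lower).

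**Figure D3:**
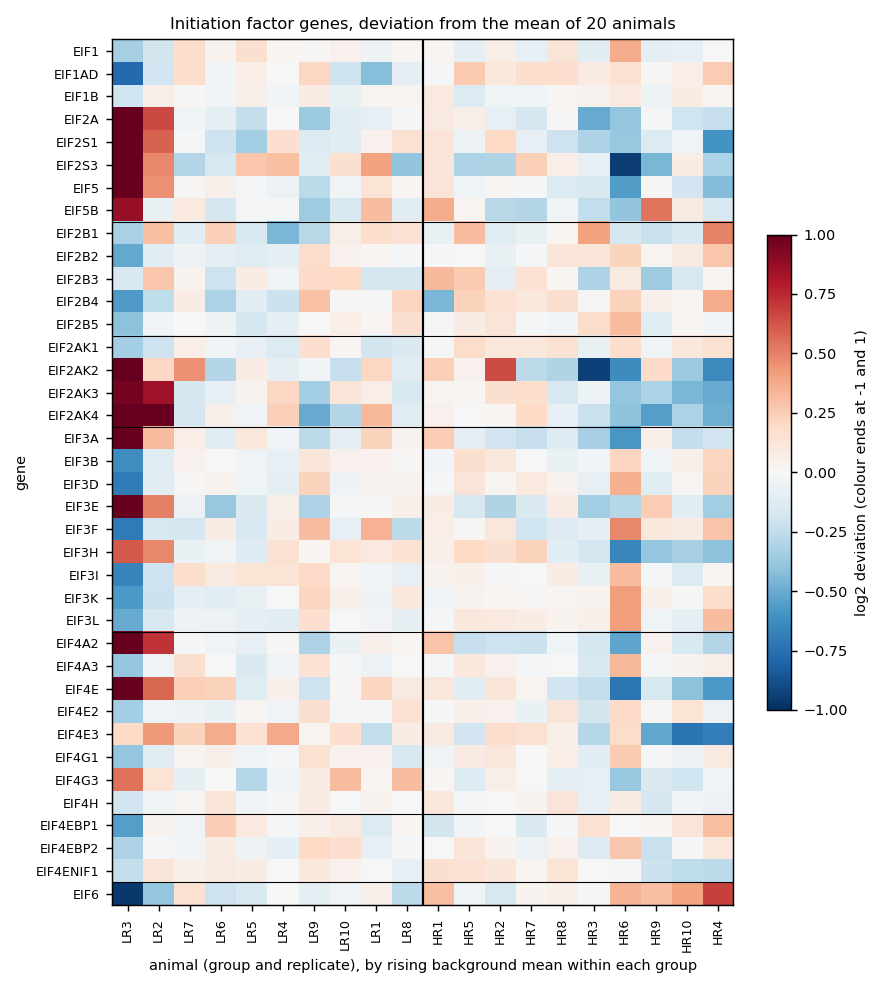
Log2 deviation from the mean over 20 animals, in colour, for the probe set that stands for each of 38 genes (rows, by role), with animals as columns, LR on the left and HR on the right, by rising background mean within each group. LR replicate 3, the first LR column, is high in EIF3A, EIF5 and EIF4E (8.51, 10.38 and 9.51 in log2 value) and low in EIF6 (7.39).

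The array carries antigenomic probe sets, which match no pig sequence, and the mean over 69 of them is called the background mean of an array. It was taken from the deposited values, in which background had already been corrected and the arrays' distributions made equal. The background mean is therefore a level after that processing and not the raw background. Per array, HR had a background mean of 4.21 ± 0.13 and LR one of 4.08 ± 0.15 (SD, n = 10 each), from 3.71 in LR replicate 3 to 4.37 in HR replicate 4. Over the 20 animals, 30 of the 55 member probe sets related to it positively and 25 negatively, with Pearson's r between -0.870 and 0.884. After Benjamini-Hochberg adjustment over these 55 relations, 20 passed by both Pearson's r and Spearman's rho in permutation tests (6 positive and 14 negative). These relations were computed for the members only. Whether the share that passed differs from that over all tested probe sets was not tested.

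EIF4E had the most negative relation, with r = -0.870 (permutation p = 1e-05, the smallest that 100000 resamples can give, adjusted p = 0.00011) and rho = -0.789 (permutation p = 7e-05, adjusted p = 0.00192). Its r was -0.725 without the 2 arrays farthest from the median background mean (LR replicate 3 and HR replicate 4), -0.865 within LR and -0.801 within HR. EIF3F, on SNOWBALL_011990_st, had the most positive, with r = 0.884 (permutation p = 1e-05, adjusted p = 0.00011) and rho = 0.737 (permutation p = 0.00031, adjusted p = 0.00341). Its r was 0.736 without those 2 arrays, 0.919 within LR and 0.753 within HR. For EIF4E3, on SNOWBALL_015758_st, r was -0.558 (permutation p = 0.0116, adjusted p = 0.0188) and rho -0.508 (permutation p = 0.0241, adjusted p = 0.0575). There r was -0.564 without those 2 arrays, -0.105 within LR and -0.597 within HR. For EIF1AD, r was 0.556 over all animals and 0.00965 without those 2 arrays, so its relation rested on them.

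With the background mean in the model, all 16 probe sets kept their sign and had a smaller difference, and 2 of them kept an unadjusted p under 0.05, both lower in HR, beside 4.27% of all tested probe sets in that fit (1.99% higher and 2.28% lower). These were the EIF4E3 probe set SNOWBALL_015758_st, at -0.22 (p = 0.00645), and the EIF2AK4 probe set SNOWBALL_031717_st, at -0.18 (p = 0.0367). The others came closer to 0, among them EIF4E at -0.17 (p = 0.0747), EIF6 at 0.19 (p = 0.0733), EIF2AK1 at 0.13 (p = 0.0611) and EIF3A at -0.08. The first principal component of the arrays held 49.0% of the variance and was computed from all tested probe sets, members included. Its mean score was 14.5 in HR and -14.5 in LR, with LR replicate 3 at -102. A fit with it can therefore take out part of a group difference. In that fit, 0 members were higher and 3 lower in HR at an unadjusted p under 0.05. Beside this stood 4.64% of all tested probe sets (1.88% higher and 2.76% lower). With the animal number in the model 1 was higher and 3 were lower, beside 3.91% (2.28% higher and 1.63% lower). EIF4E3 on SNOWBALL_015758_st stayed at -0.24 (p = 0.00406) and -0.25 (p = 0.0137) in these fits.

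**Figure D4:**
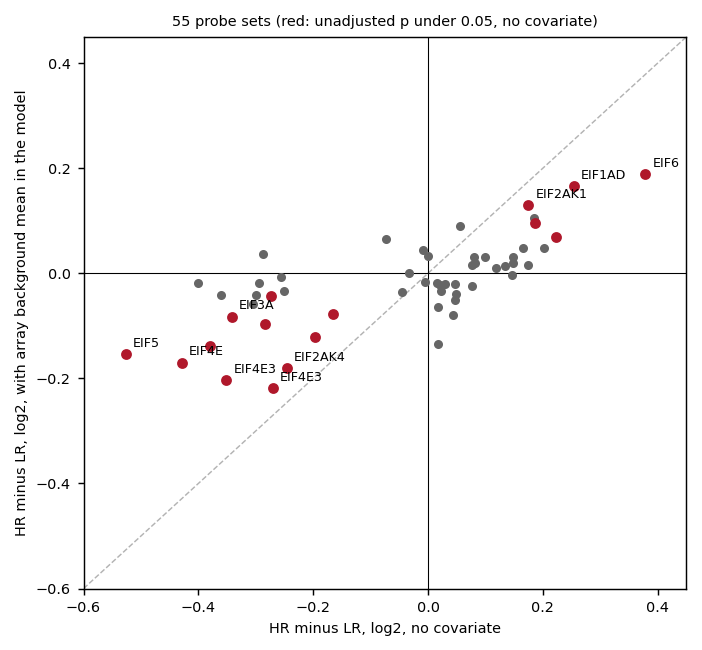
Difference HR minus LR on the log2 scale without (horizontal axis) and with the array background mean in the model (vertical axis), for 55 member probe sets. Red points had an unadjusted p under 0.05 without the covariate, and the dashed line marks equal values. All 16 red points lie nearer to 0 on the vertical axis, with EIF4E3 at -0.22 and EIF2AK4 at -0.18 the lowest that kept an unadjusted p under 0.05.

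Cell type markers of brain were all above the filter (28 of the 32 listed genes were named on the array). Of these 28, 13 had an unadjusted p under 0.05 (4 of 5 neuronal and 4 of 5 astrocyte markers among them), beside 26.3% of all tested probe sets, and 0 passed after adjustment. The neuronal markers SNAP25, SYT1, NEFL and NEFM were lower in HR in mean, by -0.26, -0.27, -0.17 and -0.36, while RBFOX3 differed by 0.04. Among markers of neuron classes, SLC17A7 (excitatory) differed by 0.21, SLC17A6 (excitatory) by -0.27 and GAD2 (inhibitory) by -0.36. The astrocyte markers did not share 1 direction, with SLC1A2, SLC1A3, GJA1 and AQP4 at -0.56, -0.31, -0.41 and -0.26 and only GFAP above 0, at 0.18. The mean log2 value over the 5 neuronal markers ran from 9.50 to 10.08 in HR and from 9.71 to 10.44 in LR, and that over the 5 astrocyte markers from 10.77 to 11.31 in HR and from 11.01 to 12.20 in LR. Those over the 3 oligodendrocyte and the 3 microglial markers ran from 11.05 to 11.48 and from 8.04 to 8.77 in HR, and from 10.79 to 11.63 and from 8.28 to 8.97 in LR. The part of cell composition in the members' differences was not tested.

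Genes that work beside the initiation factors were listed in 3 groups. In the stress response that follows phosphorylation of eIF2, 11 of 13 listed genes were tested, and 2 were higher and 3 lower in HR at an unadjusted p under 0.05. Among them, CHAC1, a glutathione-degrading enzyme and target of ATF4, differed by 0.37 ± 0.12 (SE, p = 0.005), PPP1R15B, which helps remove the phosphate from eIF2, by -0.25 ± 0.08 (SE, p = 0.00509), and SESN2, which restrains mTORC1 when amino acids are scarce, by 0.27 ± 0.09 (SE, p = 0.00937). In the mTORC1 and cap-binding control, 18 of 27 listed genes were tested, with 3 higher and 4 lower. CYFIP1, which binds eIF4E together with FMRP, differed by -0.34 ± 0.10 (SE, p = 0.00231), PAIP2B by -0.39 ± 0.15 (SE, p = 0.0157) and AKT1S1 by 0.21 ± 0.09 (SE, p = 0.0216). In elongation, termination and recycling, 12 of 14 listed genes were tested, with 1 higher and 3 lower, led by the release factor GSPT1 at -0.37 ± 0.12 (SE, p = 0.00557), EEF1D at 0.24 ± 0.09 (SE, p = 0.0184) and EEF1A1 at -0.20 ± 0.09 (SE, p = 0.0408). None of the 41 genes passed after adjustment in limma, and 16 had an unadjusted p under 0.05 (39.0%, 6 higher and 10 lower in HR), beside 26.3% of all tested probe sets (12.3% higher and 14.0% lower). With the background mean in the model the number was 3 (7.32%), beside 4.27%.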

How the data were processed

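Total RNA from the amygdala was hybridised to Affymetrix porcine Snowball arrays, 1 per animal. The authors scanned them with GCOS 1.1.1, per the processing notes, and deposited log2 values from the robust multichip average (RMA), which corrects background and makes the arrays' distributions equal, per the study's methods. That table held 47845 probe sets, 123 of them array controls, without the detection filter that the methods describe. Array medians lay between 5.14 and 5.22. Precision is limited by the number of arrays.

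Groups came from the labels. The contrast HR minus LR was fitted in limma 3.58.1 under R 4.3.3, 2-sided and without covariates (lmFit, eBayes), with Benjamini-Hochberg adjustment over 23860 probe sets and a threshold of 0.05. The method was tested on simulated data. Symbols are those of the platform annotation, in part old ones, with no genome build named. The brightest tested probe set stood for a gene. Relations between animals used permutation tests with 100000 resamples.

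Genes were named by a rule: the 8 with the smallest p in each direction and the 2 with the smallest p in each role group (18 genes), with up to 3 in each other list. A further 11 probe sets, those of EIF2S1, EIF2AK2, EIF4A2, EIF3E and EIF2AK4 and second probe sets of EIF4E3, EIF5, EIF3F, EIF2B1, EIF2AK4 and EIF4EBP1, were named after their values were seen. Members and lists were chosen with earlier results of these data known. Other settings covered the filter, normalization, variance model, weighting of arrays, covariates, choice of probe set and arrays left out, and removal of the 4 arrays of lowest correlation was chosen after seeing the data.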

Additional observations from a re-analysis of the deposited data

Results flagged for a closer look

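In 14 of 58 groups of 10 animals, the highest or lowest animal stood apart from the others by Dixon's test. LR replicate 3 was that animal in 11 of the 14. It was high in EIF2S3 (7.62), EIF3A (8.51), EIF5 on SNOWBALL_026365_st (10.09), EIF2AK2 (7.93) and EIF3E (8.33). It was low in EIF2B2 (7.92), EIF3B (7.84), EIF3L (9.07), EIF4EBP1 (6.26), EIF6 (7.39) and EIF3F on SNOWBALL_011990_st (7.37). The others were LR replicate 2, high in EIF2AK4 on SNOWBALL_031717_st (6.25), HR replicate 1, low in EIF2B4 (8.07), and HR replicate 6, high in EIF3K (11.14). These probe sets share the same 20 arrays, so the 14 are not independent. Chance gives about 1 in 20 groups (2.9 of 58) only where groups are picked without regard to their values. The 58 groups were those of the named probe sets, picked by p or after their values were seen. The 14 can therefore not be set against 2.9. In the arrays as a whole, LR replicate 3 had the lowest background mean (3.71) and LR replicate 2 the second lowest in LR (3.99).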

How the results depend on the processing

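No initiation factor passed after adjustment under any setting, the lowest adjusted p being 0.101, and the median difference stayed between -0.02 and 0.04. The count at unadjusted p under 0.05 (5 higher and 11 lower in HR) was 0 and 2 with the background mean as a covariate, 0 and 3 with the first component, 1 and 3 with the animal number, and 1 and 4 without the 4 arrays of lowest correlation. The lower count was 6 with array weights (8.14% of all tested probe sets) and 7 without LR replicate 3. Leaving out 1 animal gave 4 to 10 higher (10 without LR replicate 9) and 6 to 15 lower (6 without HR replicate 6, 7 without LR replicate 1, LR replicate 2 or HR replicate 10), while the shares of all tested probe sets ran from 7.86% to 16.2% higher and from 9.32% to 17.0% lower. Without LR replicate 9 they were 16.2% and 16.5%, and without HR replicate 6 they were 8.48% and 9.78%. For the other translation genes (6 higher and 10 lower) the counts were 1 and 2, 0 and 2, 0 and 0, and 1 and 2 in the same order of settings, and the lower count was 3 with array weights and 6 without LR replicate 3. Leaving out 1 animal gave 5 to 7 higher and 5 to 11 lower (5 without HR replicate 6, 6 without LR replicate 1 or HR replicate 4).

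Of 383 values of single probe sets under other settings, 363 kept their sign and 20 did not, and leaving out any single animal other than LR replicate 3 turned none. With the first component as a covariate the differences became 0.0252 for EIF2AK3, -0.00381 for EIF2B4, 0.0204 for EIF3A, -0.0316 for EIF3B, -0.0173 for EIF3K, 0.0394 for EIF5, 0.0474 for EIF2AK4, 0.0837 for EIF2S1, 0.0705 for EIF2AK2, 0.0488 for EIF4A2 and 0.131 for EIF3E, which was 0.0178 without the 4 arrays. EIF4EBP1 was -0.0309 with array weights, -0.0795 with the background mean, -0.107 with the first component, -0.0423 with the animal number and -0.048 without the 4 arrays, and with 1 animal left out it ran from -0.0158 (without LR replicate 3) to 0.0733. Its dimmer probe set was -0.0067 with the first component. EIF4ENIF1 was 0.000228 with the background mean. The cause was not tested. No paired analysis was possible because replicate numbers were given in accession order.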
